A study of Mus musculus with 14 samples.

Results

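CUT&RUN, in which a nuclease tethered to an antibody releases the DNA around the bound protein, was used to list sites of retinoic acid receptor alpha (RARα) in 266-6 cells, a mouse line with pancreatic acinar features. The comparison described here sets cells given CD3254, an agonist of the retinoid X receptor (RXR), against cells given the vehicle DMSO. Ligand or vehicle was given for 24 h, after 24 h of culture in stripped medium. Both groups were assayed with an antibody to RARα, and the libraries were amplified for 9 cycles. No genetic change is named in the labels, and the sources used here give no dose. The labels name 3 samples with CD3254 and 3 with DMSO, but the 3 of a group point to 1 peak list, so each of the groups is represented by 1 list. The comparison was chosen by the treatments on the labels: 493 peaks with CD3254 and 286 with DMSO, 779 of the 1529 peaks listed over 5 treatments. With 1 list per treatment there is no spread between replicates and no test between them. Intervals below are 95% Wilson intervals that cover counting error only, and neighbouring peaks are not independent. A peak list cannot check the acinar label, since it holds no expression values.

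RARα binds DNA as a heterodimer with RXR, on repeats of a hexamer related to AGGTCA. Without ligand the RAR partner holds co-repressors, and in the classical view RXR is a silent partner whose own agonist acts weakly until RAR is bound by agonist. RXR also pairs with other receptors, among them LXR, PPAR, FXR and NR4A proteins, which RXR agonists can activate. In the pancreas, retinoic acid signalling is known for its part in the early patterning of the organ and in the differentiation of its cells. The question of the comparison is where RARα was listed when only the RXR side of the heterodimer was given an agonist.

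Gene starts met by a CD3254 peak are the places where sequence could be read, and 3 of them are printed here to show it with and without receptor hexamers. The sequence of the other CD3254 peaks was not read. RefSeq windows of 300 bases (250 before and 50 after the start site, GRCm38.p6, the assembly that mm10 names) were met by 6 CD3254 peaks. Of these, 4 had no DMSO peak (as did 43.4% of all CD3254 peaks) and lay at 4931408C20Rik, Duxf3, Gm9758 and AY761185, while those at Gm40237 and Gm40369 also had one. The windows of 4931408C20Rik (chr1:26687411-26687710, minus strand, wholly inside its CD3254 peak) and Gm9758 (chr5:14914840-14915139, minus strand, 239 bases inside) come from the first kind. That of Gm40237, a lncRNA gene (chr4:118547156-118547455, plus strand, 237 bases inside), comes from the second. Capitals mark any of 4 receptor hexamers, read on both strands: AGGTCA itself, or its variant AGTTCA, or the variant GGGTCA, or else GGTTCA.
4931408C20Rik: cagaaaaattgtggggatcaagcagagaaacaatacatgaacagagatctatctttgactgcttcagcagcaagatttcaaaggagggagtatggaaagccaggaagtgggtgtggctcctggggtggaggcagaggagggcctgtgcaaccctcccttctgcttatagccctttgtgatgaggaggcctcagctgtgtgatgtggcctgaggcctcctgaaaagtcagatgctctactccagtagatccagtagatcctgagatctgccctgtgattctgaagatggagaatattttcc
Gm9758: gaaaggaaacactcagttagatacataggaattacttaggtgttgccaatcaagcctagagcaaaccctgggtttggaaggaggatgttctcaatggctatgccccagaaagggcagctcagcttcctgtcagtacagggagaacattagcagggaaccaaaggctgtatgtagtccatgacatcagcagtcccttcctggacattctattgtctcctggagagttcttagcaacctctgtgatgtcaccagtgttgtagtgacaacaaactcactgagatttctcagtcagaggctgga
Gm40237: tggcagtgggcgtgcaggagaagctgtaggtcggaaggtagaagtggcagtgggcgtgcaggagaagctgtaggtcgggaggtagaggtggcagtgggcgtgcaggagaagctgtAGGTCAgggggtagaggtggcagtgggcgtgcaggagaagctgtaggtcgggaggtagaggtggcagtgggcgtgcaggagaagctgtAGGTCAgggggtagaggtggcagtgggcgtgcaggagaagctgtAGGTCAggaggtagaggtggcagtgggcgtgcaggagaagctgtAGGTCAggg
The windows of 4931408C20Rik and Gm9758 hold none of the hexamers, whereas 43.7% of all 32851 windows hold at least 1. In the window of Gm40237, AGGTCA recurs 4 times on the plus strand, beginning at bases 116, 204, 248 and 292, inside a tandem repeat with steps of 44 or 88 bases. The windows of Gm40237 and Gm40369 were included after their sequences were seen. No pair of these hexamers in the 6 windows stood in the same direction within 5 bases of each other, an arrangement found in 0.907% of all windows. The Duxf3 window has 1 hexamer on the minus strand, and those of AY761185 and Gm40369 have none. The summits of the 6 CD3254 peaks all lay outside their windows. These matches describe letters in a window and show no binding.

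The CD3254 peak at 4931408C20Rik (chromosome 1, 26687212 to 26688177) had a fold of 4.64 over local background, where fold is the authors' ratio at the summit. At Gm9758, a gene beside the duplicated Speer4 genes, the fold was 5.96 (chromosome 5, 14914439 to 14915078). At Duxf3, a double homeobox gene, it was 4.34 (chromosome 10, 58233327 to 58233954), with 13 bases inside the window. The one at AY761185 had 5.37 (chromosome 8, 20944953 to 20945338), with 46 bases inside. Gm40237 reached 14.4 in the CD3254 list and 15.8 in the DMSO list, each against its own background. The peaks at gene starts that lacked a DMSO peak were below the list's median fold of 6.49. That is not particular to gene starts, since the median of all 214 peaks without a DMSO peak was 5.37. The peak over the AGGTCA repeat was held with and without the agonist. Its CD3254 summit lay 572 bp past the start site, outside the sequence shown.

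The CD3254 list contained nearly every DMSO place and added many of its own. DMSO peaks met a CD3254 peak by at least 1 bp in 284 of 286 cases (99.3%, 97.5 to 99.8), leaving 0.699% without. In the other direction 279 of 493 CD3254 peaks met a DMSO peak, and 214 (43.4%, 39.1 to 47.8) did not. No DMSO peak was split into several CD3254 peaks, while 5 CD3254 peaks each spanned more than 1 DMSO peak.

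At places held by both lists the peaks lay almost on top of each other. Among 274 pairs that matched 1 to 1, the median distance between the summits was 12 bp, and 219 pairs (79.9%) had summits within 50 bp. The CD3254 peak was the wider in 229 pairs and the narrower in 38, with a median difference of 24 bp. The order of strength, read inside each list, also matched. Of the 20 shared peaks of highest −log10 q in the CD3254 list 19 met one of the 20 highest in the DMSO list, and of the 100 highest 97 did. The 20 were mostly listed high-signal repeats or contigs. The only single regions among them were that nearest Rab10 and that in Mdga2. The order was not counted for single regions alone.

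The 10 shared single regions with the highest CD3254 fold had summits 0 to 16 bp apart. They included regions within the spans of Atrnl1 (fold 30.1, chromosome 19, 58113265 to 58113700) and Cdk5rap2, a centrosome gene (29.95, chromosome 4, 70378121 to 70378430). Others lay in Cldn34d (28.6, X chromosome, 76598552 to 76599220) and in Mdga2, an adhesion gene (27.5, chromosome 12, 67059168 to 67059924). Near genes, one stood 7434 bp from Tmem196 (29.5, chromosome 12, 120028676 to 120029004), and the others of the 10 were those nearest Pak3, Dpy19l2, Gtpbp4, Nbea (391688 bp away) and Rab10 (137213 bp away). Single region here means one outside contigs, listed high-signal repeats and runs of 3 or more regions in which neighbours lie no more than 100 kb apart.

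A few shared places kept the peak but not the summit. The largest distance among single regions, 984 bp, was in a peak of 1623 bp with CD3254, 9909 bp from Gm39469 (chromosome 9, 124256353 to 124257975). Next came 364 bp near Olfm1, an olfactomedin gene of the nervous system (chromosome 2, 28184112 to 28184692), and 337 bp within Dlgap2, a synaptic scaffold gene (chromosome 8, 14306767 to 14307373). Distances of 223, 222, 214 and 211 bp followed for the regions nearest Acvr1, an activin receptor gene, Snrpe, a splicing gene, Ptprd and Slc30a4, a zinc transporter gene. The regions nearest Emid1, Sv2c and Pitpnc1 closed the 10 at 188, 152 and 151 bp. Summits over 200 bp apart were seen in 7 of 114 single pairs.

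Sharing followed strength within the CD3254 list. The list was divided by −log10 q into 10 bands of 49 or 50 peaks. In the strongest band all 50 peaks met a DMSO peak, and in band 2, 47 of 49 did (95.9%, 86.3 to 98.9). The share was 75.5% (61.9 to 85.4) in band 5, 46.9% (33.7 to 60.6) in band 6 and 12.2% (5.73 to 24.2) in the weakest. Peaks without a DMSO peak had a median −log10 q of 12.4 against 94.3 for the rest, and a median of 35 fragments over the summit against 168. Fragments over the summit were recovered from the deposited fold and −log10 p.

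**Figure D1:**
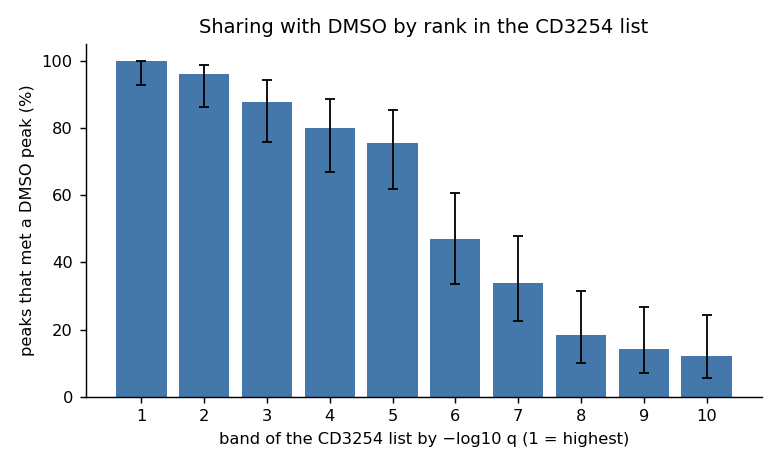
Share of CD3254 peaks that met a DMSO peak (y, percent) in each of 10 bands of the CD3254 list ranked by −log10 q (x, band 1 = highest). Bars are shares and lines 95% Wilson intervals. The share falls from 100% in band 1 to 12.2% in band 10.

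**Figure D2:**
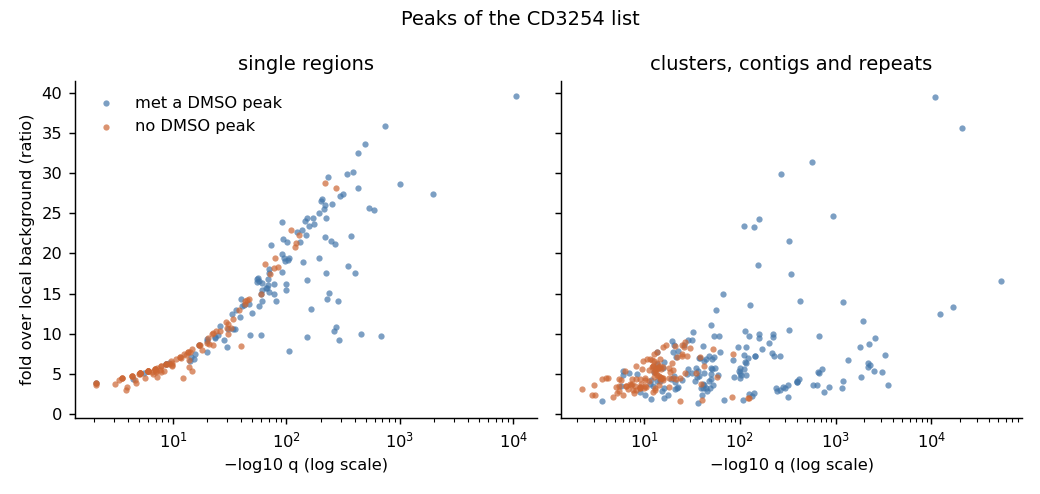
Fold over local background (y, ratio) against −log10 q (x, log scale) for each of the 493 CD3254 peaks, single regions on the left and all other classes on the right. Peaks without a DMSO peak gather at low values, and the ones that reach a fold above 10 are single regions.

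The CD3254 call was deeper, and these values move with the result. The lowest background, in fragments per base, was 2.36 in the CD3254 list and 1.32 in the DMSO list, a ratio of 1.78. The sources used here give no read number per library. Scaled to the DMSO depth, 181 of the 214 peaks without a DMSO peak (84.6%, 79.1 to 88.8) would have reached 5.86, the lowest −log10 p among DMSO peaks. Among the 279 peaks with a DMSO peak, 276 would have. With each summit taken at its lower Poisson limit for a probability of 1e-06, the counts were 32 of 214 and 223 of 279. Against the 10th percentile of −log10 p in the DMSO list, 67 of 214 passed.

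Each deposited list is also part of a longer call, since peak numbers run in genome order and leave gaps. The CD3254 list holds 493 of at least 895 numbered peaks (55.1%) and the DMSO list 286 of at least 453 (63.1%). At 48 of the 214 places no DMSO number is missing. The missing numbers elsewhere leave room for at most 115, if each removed DMSO peak met 1 CD3254 peak. On that condition, at least 99 of the 214 (46.3%) had no DMSO peak before removal either. A removed DMSO peak that met several CD3254 peaks would lower this number. Of the 48 places, 40 would have passed at the DMSO depth, and 13 with the summit at its lower limit.

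Single regions made up 102 of the 214 peaks without a DMSO peak (47.7%, 41.1 to 54.3). Dense clusters held 92, contigs 17 and the listed high-signal repeats 3. For the 279 peaks with a DMSO peak the counts were 115, 70, 63 and 31. A dense-cluster peak lacked a DMSO peak in 92 of 162 cases (56.8%, 49.1 to 64.2), a contig peak in 17 of 80 (21.3%, 13.7 to 31.4) and a single peak in 102 of 217 (47.0%, 40.5 to 53.6). Most contig and high-signal places were thus held with DMSO too. The intervals for cluster and single peaks overlap, and both lie above that for contig peaks.

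Among the single peaks without a DMSO peak, 69 lay in or within 50 kb of a protein-coding gene. The 30 of these with the highest −log10 q are described in turn, in order of what the genes are known for. Their folds run from 4.51 to 28.1 and their −log10 q from 11.6 to 273. Of the 30, 17 lay inside the gene's span and 19 were in the CD3254 list alone (as were 163 of all 214 peaks without a DMSO peak, 76.2%). All 30 would have passed at the DMSO depth, against 80 of the 102 single peaks without a DMSO peak. Choosing them by −log10 q favours passing, so that count lends the 30 no support. No DMSO number is missing at 7 of the 30, and at 25 of the 102 (24.5%). The gene table gives spans without exons, so whether a peak is exonic, intronic or in a UTR is not stated. The last of the 30, in Slc22a22, tied in −log10 q with a peak in the span of Rp2 (X chromosome, 20372876 to 20373139), which was left out.

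The first set, 6 peaks, stood at genes of gene regulation. Pknox1 encodes a TALE homeobox factor that partners PBX and HOX proteins, and its peak (chromosome 17, 31570414 to 31570674) had 130 fragments over a background of 4.87, a fold of 22.3. Zfp746, a zinc-finger repressor gene, had one 34757 bp upstream of its start (chromosome 6, 48121200 to 48121486) with 55 fragments and a fold of 14.2. Both were in the CD3254 list alone. Gtf2ird1, a TFII-I family gene, held a peak of 46 fragments (fold 11.8, chromosome 5, 134378867 to 134379210) that the AM580 and AM+CD lists also had. Sp3, an Sp-family factor, had one 32352 bp upstream (8.84, chromosome 2, 73012735 to 73012990), and Zfp629 one 3798 bp upstream (7.74, chromosome 7, 127618794 to 127619227), both also listed with AM580. The peak 15878 bp upstream of Jazf1, a zinc-finger cofactor gene (7.35, chromosome 6, 53084405 to 53084657), was also listed with AM+CD.

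Membrane traffic genes accounted for 4 peaks. Litaf, an endosomal membrane protein gene, held 125 fragments at a fold of 20.8, 17970 bp downstream of its start (chromosome 16, 10975068 to 10975320). Lmbrd1, needed for cobalamin export from lysosomes, held 43 at 11.2, 5256 bp downstream (chromosome 1, 24684025 to 24684289). Ktn1, the kinectin gene, had 43 at 10.7, 19826 bp upstream (chromosome 14, 47629428 to 47629683). These were in no other list, while the peak near Stx18, an endoplasmic reticulum syntaxin gene (8.76, chromosome 5, 38022977 to 38023298), was also listed with AM580.

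Cytoskeleton, cilium and cell-cycle genes also accounted for 4. Cdc20 activates the anaphase-promoting complex, and a peak of 57 fragments and a fold of 14.3 stood 1727 bp upstream of its start (chromosome 4, 118439012 to 118439361). Kif21a, a kinesin gene, held one of 10.7 (chromosome 15, 90943228 to 90943497). Tmem67, which encodes the ciliary protein meckelin, held one of 9.92 (chromosome 4, 12048579 to 12048970), and Tbca, a tubulin-folding cofactor gene, had one of 7.44 at 14178 bp (chromosome 13, 94857101 to 94857404). AM580 also listed the last pair.

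Solute carriers had 3. Slc25a54, a mitochondrial carrier gene, had a peak 3594 bp upstream (fold 10.3, chromosome 3, 109076752 to 109077076). Slc22a29 held one of 10.4 in its span (chromosome 19, 8252234 to 8252528), also listed with AM580, and its relative Slc22a22 one of 7.14 (chromosome 15, 57419991 to 57420407).

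Signalling, junction and matrix genes had 8 peaks. Mamdc2 held 85 fragments at a fold of 18.1 (chromosome 19, 23357428 to 23357689), and 71 at 15.0 stood 13036 bp from Mob3b, a MOB kinase-activator gene (chromosome 4, 34935781 to 34936038). Ifngr2, a subunit of the interferon gamma receptor, had 54 at 13.6, 12375 bp upstream (chromosome 16, 91534585 to 91534850). Ankar held 52 at 14.1 (chromosome 1, 72696339 to 72696651). A peak 5118 bp upstream of Dnajc27, a small GTPase gene with a J domain, had a fold of 10.1 (chromosome 12, 4077303 to 4077604). Ust, a uronyl sulfotransferase gene of the matrix, held one of 7.74 (chromosome 10, 8454171 to 8454684). Near Epm2a, the laforin gene, the fold was 7.94 (chromosome 10, 11492027 to 11492282), and in Cldn14, a tight-junction claudin gene, 6.74 (chromosome 16, 93993011 to 93993381). AM580 also listed the places at Epm2a and Cldn14.

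The other 5 stood in the spans of genes for which no role is given here. 2210408I21Rik had the highest −log10 q of the 214, 273, with 255 fragments over 8.10 and a fold of 28.1 (chromosome 13, 77438910 to 77439186). AM+CD listed it too, and no DMSO number is missing there. Gm51572 (9.52, chromosome 8, 55121325 to 55121641), Gm3629 (8.03, chromosome 14, 6637078 to 6637471), Gm10410 (7.74, chromosome 14, 4969122 to 4969372) and 2410141K09Rik (4.51, chromosome 13, 66431378 to 66432169) were in the CD3254 list alone.

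**Figure D3:**
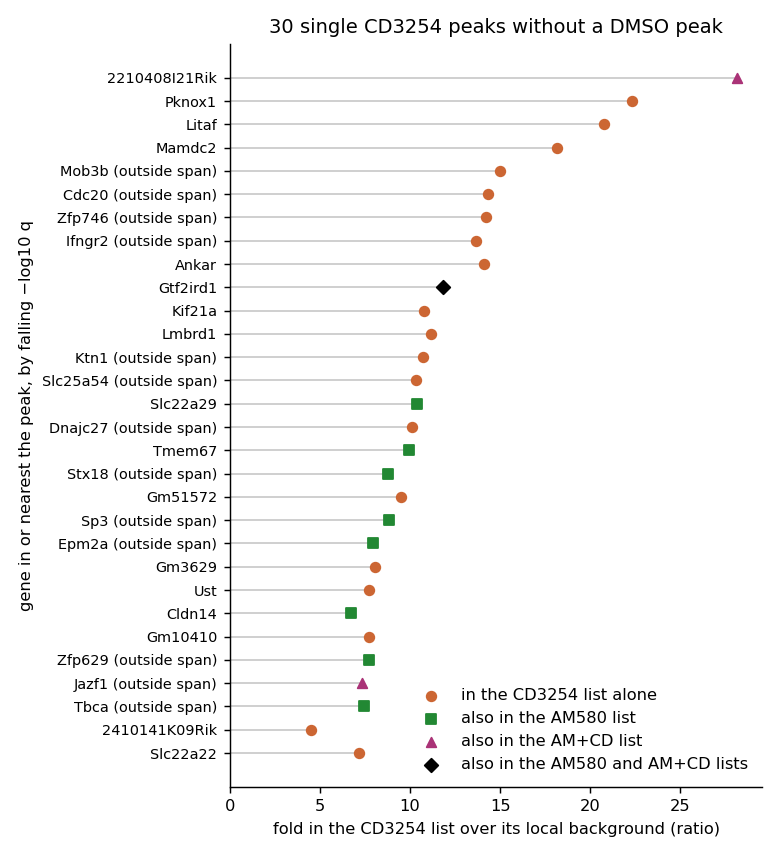
Fold in the CD3254 list (x, ratio over local background) of the 30 single peaks without a DMSO peak, by gene (y, ordered by −log10 q). Marker shape and colour give the other ligand lists that hold the place. The 4 highest folds run from 18.1 to 28.1, and 19 of the 30 peaks were in the CD3254 list alone.

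Of the 102 single peaks without a DMSO peak, 33 had no protein-coding gene within 50 kb. The strongest was on chromosome 16 (98107444 to 98107698), with 200 fragments and a fold of 28.8, in no other list and with no DMSO number missing. Another such place was on chromosome 12 (93576990 to 93577253, fold 19.4). On chromosome 14 (37856001 to 37856268, 21.3) and chromosome 4 (153153033 to 153153283, 18.3) stood others in the CD3254 list alone, inside the non-coding or pseudogene spans Gm5204 and Gm31055. All 4 of these were chosen after their values were seen.

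The strong single peaks without a DMSO peak were narrow. With a −log10 q of at least 50 there were 12, of which 10 (83.3%, 55.2 to 95.3) were at most 300 bp wide, and their median width was 261.5 bp. The shortest peak in the list was 249 bp. Of the 84 single peaks of that strength with a DMSO peak, 5 were as narrow (5.95%, 2.57 to 13.2) and the median was 462 bp. Within the same range of 67 to 255 fragments over the summit, 3 of 53 were (5.66%, 1.94 to 15.4), with a median of 446 bp. Narrow peaks of the first kind included those at Pknox1 (261 bp), Litaf (253 bp), Mamdc2 (262 bp), Mob3b (258 bp) and 2210408I21Rik (277 bp). The exceptions were the region on chromosome 1 at 157877238 (373 bp), also listed with AM580, and the one on chromosome 4 at 64497804 (454 bp), also listed with AM580 and AM+CD. The thresholds of 50 and 300 bp were chosen after the values were seen, and the part of duplicate reads in these peaks was not tested.

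**Figure D4:**
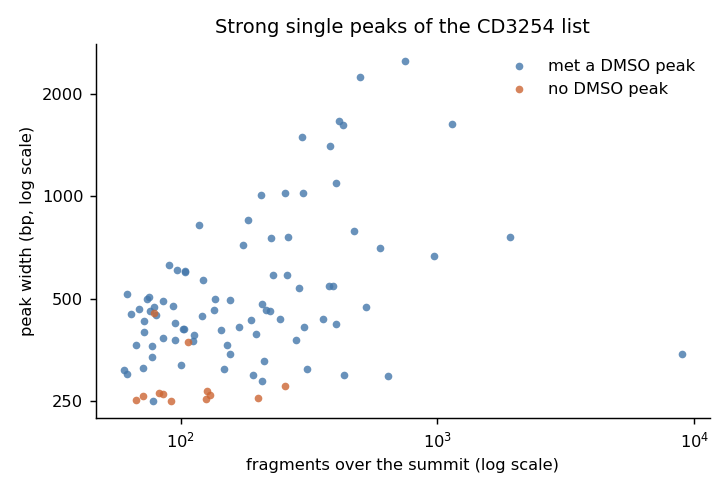
Peak width (y, bp, log scale) against fragments over the summit (x, log scale) for the 96 single CD3254 peaks with −log10 q of at least 50. Of the 12 without a DMSO peak, 10 lie at or below 300 bp, against 5 of the 84 with one.

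Dense clusters held 92 of the peaks without a DMSO peak, and 5 clusters held 58 of them. The largest, on chromosome 8 (20275231 to 20682577, around Gm15319, Gm40469 and Gm21119), had 30 CD3254 peaks, 23 without a DMSO peak, and 7 DMSO peaks. A second on chromosome 8 (20049106 to 20154499, no coding gene) had 10 of 12 without. On chromosome 5, the cluster at 15462575 to 15712262, with Speer4d and Speer4c of a duplicated family, had 10 of 14 without, and that at 14914439 to 15054880, around Speer4e and Gm9758, had 9 of 14. A cluster around Sfi1, a centriole gene (chromosome 11, 3100379 to 3199462), had 6 of 11. In these 5 clusters DMSO was present with 2 to 7 peaks. All 6 CD3254 peaks of the cluster over LOC100504180, Duxf3 and Gm4981 (chromosome 10, 58221687 to 58239725), which was chosen after its values were seen, lacked one. AM580 had peaks in 4 of the 6 regions of that cluster and AM+CD in 1.

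Folds in the largest cluster ran from 3.02 to 8.46 for the peaks without a DMSO peak, and the median local background of its CD3254 peaks was 5.50 fragments per base against the list's floor of 2.36. In 32 of the 92 cluster cases a DMSO peak lay within 10 kb and in 79 within 100 kb, while 2 and 3 of the 102 single ones had a DMSO peak that near. Clusters are defined by neighbours no more than 100 kb apart, DMSO regions included. Much of this contrast therefore follows from the class rule and is no separate result. Families of near-identical copies can split or share reads, so counts inside these clusters are uncertain.

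By chromosome, 49 of the 68 CD3254 peaks of chromosome 8 lacked a DMSO peak, 43 of them in clusters, and 26 of 38 on chromosome 5, 19 of them in clusters. Chromosome 1 had 10 of 15, all single, and chromosome 10 had 15 of 19. Chromosome 9 had 6 of 32 and chromosome 2 had 5 of 22, so the added places were unevenly spread. Most of the chromosome 9 peaks that met a DMSO peak lay in a listed high-signal repeat near its start (3000022 to 3038309).

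**Figure D5:**
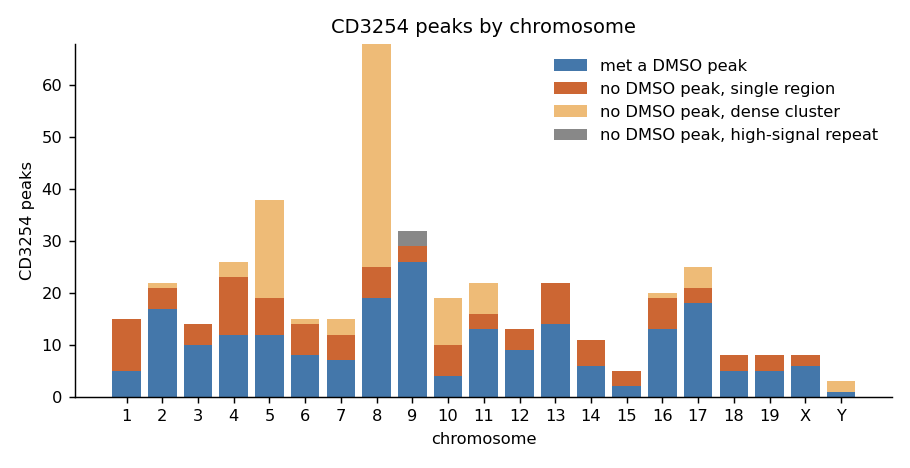
CD3254 peaks (y, count) on each chromosome (x), stacked as peaks that met a DMSO peak and peaks without one in single regions, dense clusters or high-signal repeats. Chromosome 8 has 43 cluster peaks without a DMSO peak and chromosome 5 has 19.

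Gene spans and gene starts held close shares of both kinds of peak. On the main chromosomes 51 of 197 peaks without a DMSO peak lay in a protein-coding span (25.9%, 20.3 to 32.4), as did 53 of 212 with one (25%, 19.7 to 31.2). In single regions the shares were 32.4% (24.1 to 41.9) and 37.4% (29.1 to 46.5). Summits within 1000 bp of a coding start site numbered 2 of 102 and 1 of 115, and within 10000 bp 18 (17.6%, 11.5 to 26.2) and 16 (13.9%, 8.75 to 21.4). All these intervals overlap. The start sites used include no protein-coding start on chromosome 18 and lack some other genes, such as Pknox1 and Tmem67. Summits near a missing start could be counted as far from one, so the counts near starts are minimums.

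Only 2 DMSO peaks had no CD3254 peak, both in dense clusters and both where 1 CD3254 number is missing. One lay in the Speer4e cluster, over the pseudogene Speer8-ps1 (chromosome 5, 14959417 to 14959726), with 38 fragments and a DMSO fold of 4.51, and the nearest CD3254 peak was 1787 bp away. The other stood 6638 bp from 4930467E23Rik (chromosome 8, 19760241 to 19760666), with 21 fragments and a DMSO fold of 6.58, and the nearest CD3254 peak was 8034 bp away. They ranked 246 and 252 of 286 by −log10 q. AM+CD listed the second, and neither AM580 nor 9-cis retinoic acid listed either.

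Genes of the retinoid pathway and of RXR's other partners had no peak nearby. Of all 21900 protein-coding genes, 1.49% lay within 50 kb of a CD3254 peak, 0.868% of a DMSO peak and 0.717% of a CD3254 peak without a DMSO peak. Among 28 RAR target genes, which include Rarb and the retinoic acid hydroxylase gene Cyp26a1, 0 had a CD3254 peak within 50 kb. The count was also 0 of 20 for retinoid metabolism and transport, and 0 of 28 for targets of LXR, PPAR, FXR and NR4A such as the cholesterol exporter gene Abca1. Nuclear receptors and co-regulators gave 0 of 28. At 1.49%, lists of this size hold too few genes for a count of 0 to show a difference from all genes. DMSO peaks gave 0 in each of these lists as well.

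The genes named in the next sentences, apart from Pknox1, were chosen after their distances were seen. Past 50 kb, the nearest CD3254 peak to a listed gene was 86.1 kb from Fgf8, a growth factor gene and RAR target, and DMSO held that place too. A peak was 116.7 kb from Pomc, an NR4A target, where the nearest DMSO peak was 844.8 kb away, and one 124.3 kb from Cpt1a, the PPAR target of fatty acid oxidation. Among receptors and co-regulators, Ncoa1, a receptor coactivator, was 169.8 kb from the same peak as Pomc. That peak is the one upstream of Dnajc27. Rxra followed, 420.8 kb from another peak, at a place that DMSO held too. Acinar genes gave 0 of 23 digestive enzyme genes and 0 of 12 transcription factors, the nearest being Xbp1, a secretory-pathway factor, at 351.0 kb and Cel, the carboxyl ester lipase gene, at 371.1 kb. Both of those peaks were also listed with DMSO. Ductal markers gave 0 of 10 and islet markers 0 of 14. Of 22 Hox and related homeobox genes, Pknox1 alone had a peak within 50 kb.

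The other ligand lists were shorter than the 493 peaks of CD3254, with 323 for AM580, 227 for AM+CD and 200 for 9-cis retinoic acid. AM580, an RARα agonist, listed 44 of the 214 (20.6%, 15.7 to 26.5), AM+CD 18 (8.41%, 5.39 to 12.9) and 9-cis retinoic acid, a ligand of both receptor families, 0 (up to 1.76%). For the 279 places with a DMSO peak the counts were 249, 203 and 170. The 214 were also weaker in the CD3254 list, with a median −log10 q of 12.4 against 94.3. The part of strength in these counts was not tested. These counts share 1 DMSO list, so a peak removed from it would count for several ligands at once, and they are given as a description. In AM580 and not AM+CD were 33, in AM+CD and not AM580 7, and in both 11.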

How the data were processed

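RARα CUT&RUN peak lists of 266-6 cells were analysed, 1 list per treatment, with groups taken from the labels. The submitters' processing notes name Bowtie2 2.5.1, SAMtools 1.18 and MACS2 2.2.7.1 with build mm10. The sources used here do not state their order, the control, the thresholds or how duplicate reads and replicates were handled. The deposited fold (a ratio) and the deposited −log10 p and q of each peak were used within a list only, except that the DMSO background and lowest −log10 p served the depth scaling. The deposited score was not used further.

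Shared means an overlap of at least 1 bp. Pileup P and background b were recovered from fold = (P + 1) / (b + 1) and the upper Poisson tail, and the procedure returned 500 of 500 pileups on simulated data. For the depth scaling both were divided by 1.78, the CD3254 background over that of DMSO. Overlap counting was also tested on simulated data. Genes and promoter windows are RefSeq, GRCm38.p6. Of 169 listed genes 168 matched. The classes use 7 high-signal regions written from general knowledge, and union regions of all 5 lists. Genes were named by rule: the 30 single CD3254 peaks of highest −log10 q without a DMSO peak and within 50 kb of a coding gene, every DMSO peak without CD3254, listed genes within 50 kb of a peak, promoters met by a CD3254 peak without a DMSO peak, the 10 shared single regions of highest fold and the 10 with the largest summit distance, and the 5 clusters with most peaks without a DMSO peak. Names outside this rule, such as Gm40237, Gm40369, Fgf8, Pomc, Cpt1a, Ncoa1, Rxra, Xbp1, Cel and Rp2, were chosen after their values were seen. The comparison, the gene lists and the classes were chosen with earlier results of these data known. Alternatives were another overlap rule, stricter −log10 q, trimmed lists, single regions only, other gaps and other distances. Analysis used Python with numpy 2.4.6, pandas 2.3.3 and scipy 1.17.1.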

Additional observations from a re-analysis of the deposited data

How the results depend on the processing

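Of 27 other settings, 15 left the value within its main interval or count range. The share of CD3254 peaks that met a DMSO peak (56.6%) was 62.4% with a −log10 q of at least 10 in both lists, 81.8% with both lists trimmed to 286 peaks and 90% with the 200 best of each. The share of DMSO peaks that met a CD3254 peak (99.3%) was 90.2% with summits within 200 bp, 82.9% and 90% with the trimmed lists and 100% in single regions. Trimming removes weak CD3254 peaks, which by construction changes which peaks can match. Single regions were 38.1% of the peaks without a DMSO peak at a −log10 q of at least 10, against 47.7%. The share that passed at the DMSO depth (84.6%) was 15.0% with summits at their lower limit and 31.3% against the 10th percentile of the DMSO list. Counting all genes of the table put 40.1% in a gene span, against 25.9%. Within 100 kb of a CD3254 peak lay 2 listed genes, Pknox1 and Fgf8, against 1. No paired analysis was possible because each treatment has 1 list, and for the same reason no replicate could be left out.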
